A study of Mus musculus with 8 samples.

Results

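The genes described here are 9 genes through which cells answer TGF-beta or restrain it: Pmepa1, Ski, Skil, Tgif1, Klf10, Bhlhe40, Ccn2, Tgfbi and Postn. They were chosen by name, and every probe set whose platform annotation names one of these genes alone was taken. That gave 16 of the 34945 probe sets naming 1 gene: 4 for Tgfbi, 3 for Pmepa1, 2 each for Ski and Skil and 1 for each of the other members. RNA was measured on one-colour Affymetrix arrays in tongue buds, the embryonic swellings that become the tongue, of C57BL/6J mouse embryos at embryonic day 13.5. The mutant group held 4 buds of the genotype Alk5 fl/fl; Wnt1-Cre and the control group 4 buds of the genotype Alk5 fl/fl, so both carried the floxed alleles. Wnt1-Cre is active in neural crest cells, the source of the mesenchyme and connective tissue of the tongue, and removes Alk5, the type I TGF-beta receptor whose gene symbol is Tgfbr1. Myogenic precursors, endothelium, epithelium and blood cells of the mutant bud do not descend from the neural crest and keep the receptor. No group carried Wnt1-Cre without the floxed alleles, so the transgene and the loss of the receptor cannot be told apart. The labels number the buds without naming litters, so p-values measure the spread between these samples only.

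TGF-beta binds a type II receptor, which recruits and activates Alk5, and Alk5 phosphorylates Smad2 and Smad3. These enter the nucleus with Smad4 and switch on early target genes, several of which encode brakes on the same pathway. Pmepa1 is a membrane protein that holds Smads away from the receptor, Ski and Skil are nuclear co-repressors that bind Smads, Tgif1 is a homeodomain co-repressor, and Klf10 and Bhlhe40 are transcription factors induced early by TGF-beta. Ccn2, Tgfbi and Postn encode secreted proteins of the extracellular matrix that TGF-beta induces in mesenchymal cells.

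The arrays were close to each other, with median log2 values of 5.96 to 6.01 and Pearson correlations across probe sets of 0.995 to 0.998 among mutants and 0.992 to 0.997 among controls. Control 3 stood apart: there the Y-linked genes Uty, Kdm5d and Eif2s3y averaged a log2 value of 3.09, where the remaining arrays had 8.44 to 8.73, and the labels give no sex. Without control 3 the calls over all genes of Pmepa1, Ski and Bhlhe40 described below were kept and that of Tgif1 was lost. The log2 value of Tgfbr1, the targeted gene, averaged 12.39 ± 0.03 in mutants and 12.00 ± 0.10 in controls (SD, n = 4 each). It was higher, not lower, in mutants, at a log2 change of 0.39 (limma adjusted p = 0.00342), and all 3 of its probe sets were higher (adjusted p of 0.00662 to 0.0367 over all probe sets). Neither the annotation nor the labels place its probes relative to the floxed part, so these probes check nothing about the deletion, and the direction of every change below rests on the genotypes as labelled. Of the cell type marker lists, 12 of 16 differentiated muscle genes, 4 of 12 macrophage and leukocyte genes, 3 of 6 Schwann and glial genes, 2 of 10 smooth muscle and pericyte genes and 1 of 10 oral epithelial genes were lower in mutants with none higher. Tendon and muscle connective tissue markers gave 2 higher and 5 lower of 14, neuronal markers 2 higher and 5 lower of 9, endothelial markers 3 higher of 10, cartilage and bone markers 1 higher of 8, and erythroid markers 0 of 5 in limma (also 0 at an unadjusted p under 0.05). Over all genes 5.52% were lower and 4.2% higher. With each gene's probe sets averaged, 3 macrophage, 2 Schwann, 1 smooth muscle and 4 tendon markers were lower. The remaining counts were unchanged. All measured muscle, endothelial and epithelial markers lay above the array medians in at least 1 group, so defining markers of these tissues were measured above the arrays' middle level. In whole buds, fewer cells of a type and less RNA per cell cannot be told apart, and this holds for every change below.

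Most of the 9 genes had lower signal in mutants, by small amounts. Taking the brightest probe set of each gene, 3 of 9 fell (Pmepa1, Ski and Bhlhe40), 1 rose (Tgif1) and 5 did not pass an adjusted p of 0.05 in limma, which adjusts over all 18193 genes. Over all genes 9.72% passed, 5.52% lower and 4.2% higher. Mutant and control arrays did not overlap for 6 of the 9 genes, 5 lower and 1 higher, where 17.8% of all genes showed such a separation (8.87% lower and 8.92% higher). The log2 changes ran from −0.54 to 0.24 with a median of −0.22, and the median over all genes was −0.01. No member changed by as much as 1.5-fold: the largest change, of Bhlhe40, left mutants at 0.686 of the control level. Among the 16 probe sets tested over all 34945, 2 fell, 1 rose and 13 did not pass, where 5.94% of all probe sets passed (3.25% lower and 2.69% higher). Groups were apart for 8 of the 16 sets, 7 lower and 1 higher, beside 14.7% of all probe sets (6.89% lower and 7.82% higher). The log2 change was below 0 for 14 of the 16, which count a gene with several sets more than once, and for 7 of the 9 genes. The median change over all probe sets was −0.002. When a gene's probe sets were averaged, 3 members fell (Pmepa1, Skil and Bhlhe40) and 1 rose (Tgif1), where 8.03% of all genes passed (4.61% lower and 3.42% higher). The members and all lists used here were chosen with earlier results of these data known, so these counts are a description.

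**Figure D1:**
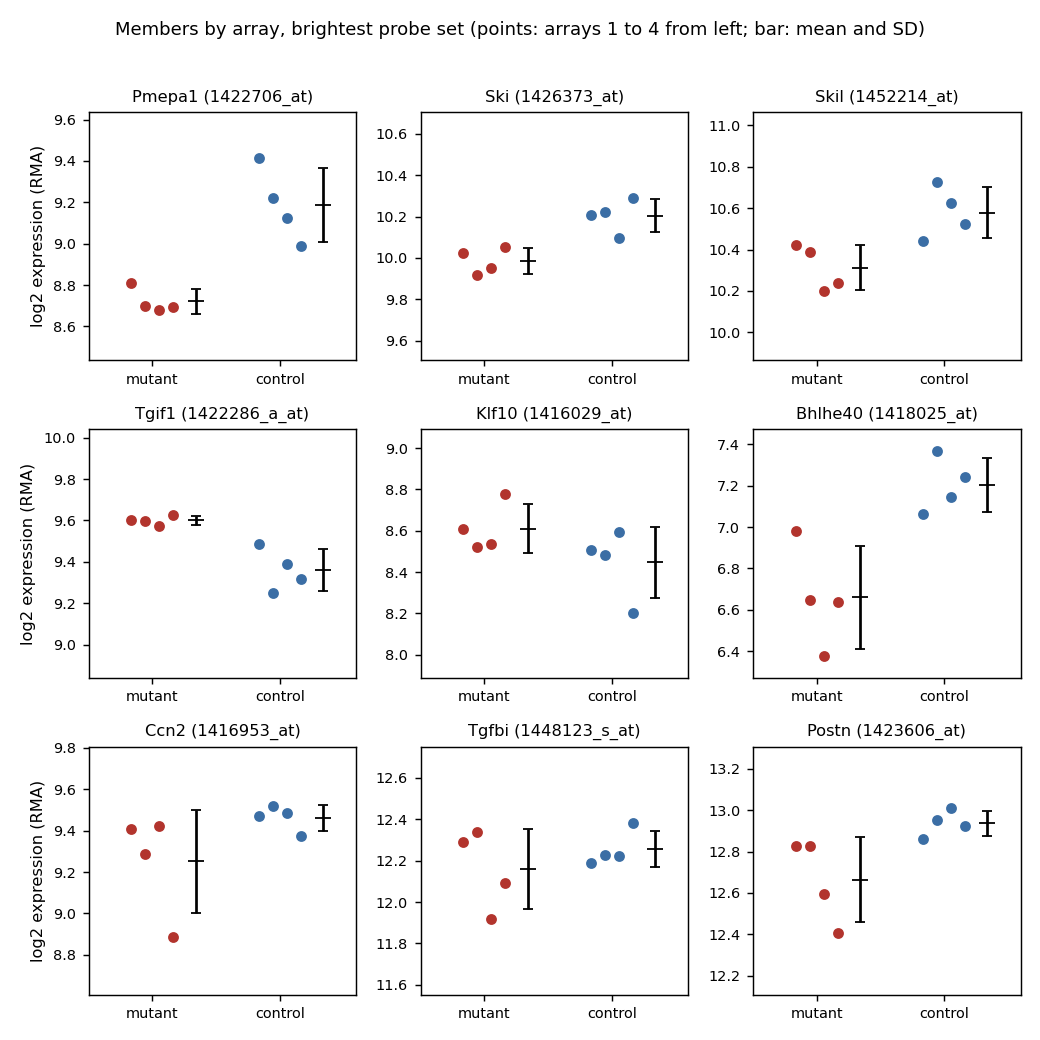
Log2 expression (vertical axis, RMA values) of each member on its brightest probe set, with 4 mutant arrays (red, left) and 4 control arrays (blue, right), all panels spanning the same range; black bars give the group mean and SD. The groups do not overlap for Pmepa1, Ski, Skil, Bhlhe40 and Postn, all lower in mutants, nor for Tgif1, which is higher.

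**Figure D2:**
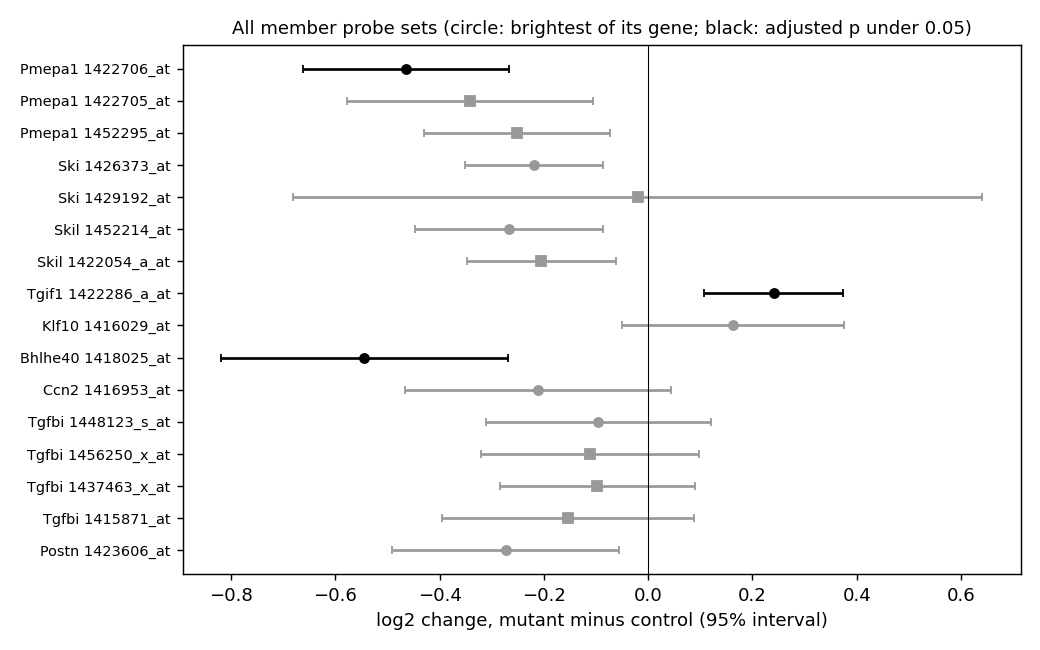
Log2 change, mutant minus control (horizontal axis), with its 95% interval for each of the 16 probe sets; circles are the brightest probe set of a gene and black marks an adjusted p under 0.05 over all probe sets. The 3 Pmepa1 sets and both Skil sets lie below 0, and the second Ski set has an interval of −0.68 to 0.64.

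The stretch upstream of the transcription start is where Smads and their partners can bind, and it is shown for the 4 members with an entry in the RefSeq promoter table (GRCm38.p6), which include a regulator that fell, the regulator that rose and both genes of the fasciclin matrix pair. Each sequence is the 250 bases before the start, 5′ to 3′ on the gene's strand, taken at the most upstream of the listed starts (1 for Ski and Tgfbi, 5 for Tgif1, 2 for Postn). Capitals mark CAGAC, the core of the Smad box, on either strand, where it reads GTCTG. The windows are chr4:155222536-155222785 on the minus strand for Ski, chr17:70853533-70853782 on the minus strand for Tgif1, chr13:56609336-56609585 on the plus strand for Tgfbi and chr3:54359017-54359266 on the plus strand for Postn.
Ski: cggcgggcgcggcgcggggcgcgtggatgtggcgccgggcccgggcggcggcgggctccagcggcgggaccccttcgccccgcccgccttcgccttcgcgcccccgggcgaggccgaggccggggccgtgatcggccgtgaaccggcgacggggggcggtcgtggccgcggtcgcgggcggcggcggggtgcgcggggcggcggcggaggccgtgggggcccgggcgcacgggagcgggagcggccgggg
Tgif1: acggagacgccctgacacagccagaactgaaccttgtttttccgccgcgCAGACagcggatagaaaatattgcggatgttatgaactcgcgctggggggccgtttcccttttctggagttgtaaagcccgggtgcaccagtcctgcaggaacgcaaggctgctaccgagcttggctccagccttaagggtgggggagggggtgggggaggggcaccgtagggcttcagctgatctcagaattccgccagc
Tgfbi: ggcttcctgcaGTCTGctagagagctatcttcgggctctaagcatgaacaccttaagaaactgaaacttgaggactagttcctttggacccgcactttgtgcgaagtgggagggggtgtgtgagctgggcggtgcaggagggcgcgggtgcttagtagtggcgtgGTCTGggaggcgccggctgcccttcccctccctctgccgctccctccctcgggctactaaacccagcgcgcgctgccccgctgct
Postn: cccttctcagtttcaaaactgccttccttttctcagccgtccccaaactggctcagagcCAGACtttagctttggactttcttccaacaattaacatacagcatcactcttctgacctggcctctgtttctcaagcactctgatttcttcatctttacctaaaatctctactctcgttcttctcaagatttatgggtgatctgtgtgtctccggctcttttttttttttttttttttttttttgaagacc
Tgif1 held 1 match, beginning at −201 relative to the start, Postn 1 at −191, Tgfbi 2 at −239 and −85, and Ski none. The count depends on the start: the other starts of Tgif1 held 0 to 2 matches and the second start of Postn 0. CAGAC or its complement is found in 42.2% of the 32851 promoter windows of this length in the table, so a match is common. The Tgif motif, TGTCA on either strand and present in 40% of all windows, was found 1 time, in Tgif1. In these 4 windows there was no match to the AP-1 motif TGANTCA (6.75% of all windows), the TEAD motif GGAATG (12.6%) or the E-box CACGTG (6.02%), each searched on both strands. In the Tgif1 window the Smad box and the Tgif motif did not overlap. A match describes letters only, and the arrays do not measure binding.

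The feedback inhibitor Pmepa1 fell on its brightest probe set and pointed the same way on all 3 sets. Pmepa1 is induced by Smad signalling, and its protein competes for Smads at the receptor and recruits ubiquitin ligases. On probe set 1422706_at the log2 values were 8.81, 8.70, 8.68 and 8.69 in mutants 1 to 4, against 9.41, 9.22, 9.12 and 8.99 in controls 1 to 4. Every mutant lay below every control, and the mutants spread less than the controls. The means were 8.72 ± 0.06 in mutants and 9.19 ± 0.18 in controls (SD, n = 4 each). The log2 change of −0.47 (SE 0.085, adjusted p = 0.0089 over all genes) put mutants at 0.724 of the control level, with a 95% interval of 0.634 to 0.827.

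Both dimmer sets of Pmepa1 were lower by smaller amounts. Set 1422705_at read 6.34, 6.22, 6.50 and 6.46 in mutants and 6.95, 6.84, 6.53 and 6.59 in controls, without overlap (log2 change −0.34, adjusted p = 0.0991 over all probe sets). Set 1452295_at read 6.06, 6.01, 5.85 and 5.93 in mutants and 6.29, 6.03, 6.34 and 6.19 in controls (log2 change −0.25, adjusted p = 0.107), where mutant 1 lay above control 2. Neither set passed. A difference in change between the brightest set and either of these was not shown (differences of the changes −0.12 and −0.21, exact two-sided permutation p = 0.286 and 0.143, adjusted over the 7 within-gene pairs 0.667 and 0.5). Over all genes Pmepa1 passed in each of the 19 alternatives run, at log2 changes of −0.53 to −0.35, the weakest of them from the mean of its 3 sets. Over all probe sets the brightest set passed in 12 of 18 alternatives and was lost without mutant 2, mutant 3, mutant 4 or control 2 (adjusted p up to 0.0523), without variance moderation (0.0562) and without controls 1 and 3 (0.0638).

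The paralog of Pmepa1 moved the same way. Ldlrad4, whose protein shares the Smad-binding region of Pmepa1 and also restrains TGF-beta signalling, read 5.52, 5.40, 5.59 and 5.48 in mutants and 6.01, 5.93, 6.06 and 6.15 in controls, again without overlap. Its log2 change was −0.54 (SE 0.063, adjusted p = 0.00103). The mutant level lies below the array medians and the control level near them. The probe set name ends in _s_at, which marks probes shared with further transcripts, and with sets ending _s_at or _x_at left out Ldlrad4 changed by −0.17 and did not pass (adjusted p = 0.12).

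On their brightest probe sets the co-repressors Ski and Skil had lower signal, at the edge of the threshold. Both proteins bind Smad complexes on target genes and silence them, TGF-beta triggers their degradation, and Skil is itself induced by the pathway as the signal fades. Ski, on set 1426373_at, read 10.02, 9.92, 9.95 and 10.05 in mutants against 10.21, 10.22, 10.10 and 10.29 in controls. No mutant reached the lowest control, and the means were 9.99 ± 0.06 in mutants and 10.20 ± 0.08 in controls (SD, n = 4 each). The log2 change of −0.22 (SE 0.057, adjusted p = 0.0418) passed over all genes but not over all probe sets (adjusted p = 0.0655). Leaving out single arrays ended the call in 7 of 8 cases, all but control 3 (−0.25 to −0.19, adjusted p up to 0.119). With the mean of both sets Ski changed by −0.12 and did not pass (adjusted p = 0.697).

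Skil missed the threshold. On set 1452214_at it read 10.42, 10.39, 10.20 and 10.24 in mutants and 10.44, 10.73, 10.63 and 10.52 in controls, with mutant 1 just under control 1. The log2 change was −0.27 (SE 0.078, 95% interval −0.44 to −0.09, adjusted p = 0.0637). The dim set 1422054_a_at, below the array medians in both groups, read 5.46, 5.30, 5.24 and 5.28 in mutants and 5.52, 5.46, 5.61 and 5.50 in controls, a log2 change of −0.20 (adjusted p = 0.102 over all probe sets). The groups did not overlap on either set, and with the mean of both sets Skil passed over all genes (−0.24, adjusted p = 0.0454). The change of Ski minus that of Skil was 0.05 on the log2 scale, an exact two-sided permutation p of 0.571, where the smallest p that 4 arrays against 4 allow is 0.0286. That does not show that the 2 genes changed alike.

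The second probe set of Ski did not separate the genotypes. Set 1429192_at read 8.78, 9.19, 9.73 and 9.65 in mutants and 10.01, 9.64, 8.93 and 8.86 in controls. Both groups covered nearly the same range, and their SDs of 0.44 and 0.56 were several times those of set 1426373_at. The log2 change was −0.02 (95% interval −0.68 to 0.64, adjusted p = 0.982 over all probe sets), and a difference from the change of set 1426373_at was not shown (exact permutation p = 0.629, adjusted 0.88). The arrays took almost the same order for Malat1, a nuclear long non-coding RNA, whose brightest set 1418189_s_at read 7.58, 8.28, 9.80 and 9.24 in mutants and 9.73, 9.02, 7.49 and 7.11 in controls. Across the 8 arrays the log2 values of Ski set 1429192_at and Malat1 had a Pearson r of 0.967 and a Spearman rho of 0.905. Malat1 was chosen after the values of this Ski set were seen, so these are descriptions and no p is given. Without controls 3 and 4, the arrays farthest from the median of Malat1, r was 0.966 over 6 arrays. For set 1426373_at r was −0.182 and rho −0.333, with r at 0.323 without controls 3 and 4.

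The Malat1 signal was then added to the fit as a covariate, a choice made after seeing the data. In that fit the log2 change of set 1429192_at was −0.19 and did not pass, beside −0.22 for set 1426373_at. Malat1 was picked after the values of set 1429192_at were seen and follows them closely. The covariate therefore takes out spread of that set by its choice, and no p is given for it. The fit cannot show whether the Ski sets changed alike. In the same fit the second Pmepa1 set 1422705_at changed by −0.39 and passed (adjusted p = 0.00718). At gene level that fit called the same number of members, 3 lower and 1 higher. What the Malat1 signal stands for on these arrays was not tested.

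**Figure D3:**
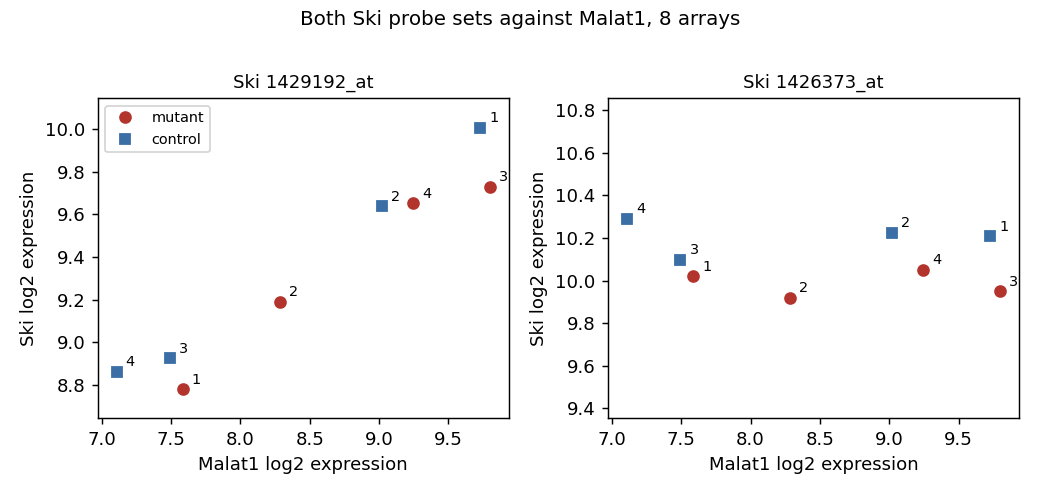
Log2 expression of each Ski probe set (vertical axes, same span) against that of Malat1 (horizontal axis) on 4 mutant arrays (red circles) and 4 control arrays (blue squares), numbered by replicate. Set 1429192_at climbs with Malat1 in both groups, and on set 1426373_at all 4 mutants lie below all 4 controls.

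Tgif1 was the member that rose. Its protein is a homeodomain co-repressor that binds Smad2 and Smad3 and also represses retinoic acid targets, and loss of its function in humans is linked to holoprosencephaly. The log2 values of set 1422286_a_at were 9.60, 9.60, 9.57 and 9.63 in mutants and 9.49, 9.25, 9.39 and 9.32 in controls. The mutants spread over 9.57 to 9.63 only, and all of them lay above the controls. The means were 9.60 ± 0.02 in mutants and 9.36 ± 0.10 in controls (SD, n = 4 each). The gene was 1.18-fold higher, 0.24 on the log2 scale (SE 0.058, adjusted p = 0.0304 over all genes and 0.049 over all probe sets). The call ended without any single array other than control 1 (7 of 8 cases, 0.20 to 0.28, adjusted p up to 0.0819). Its paralog Tgif2 read 10.77, 10.74, 10.72 and 10.79 in mutants and 10.49, 10.58, 10.56 and 10.65 in controls. Tgif2 was 0.18 higher on the log2 scale at an adjusted p of 0.0494, and its call held only without control 4 among the 8 single-array omissions (0.16 to 0.21).

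Klf10 differed in the same direction as Tgif1 without passing. Klf10, a zinc-finger factor first found as an early TGF-beta response gene, represses Smad7 and so can prolong signalling. Its log2 values were 8.61, 8.52, 8.53 and 8.78 in mutants and 8.51, 8.48, 8.60 and 8.20 in controls, and the groups overlapped. The log2 change was 0.16 (95% interval −0.05 to 0.37, adjusted p = 0.329). Control 4 was the lowest array, and without it the change was 0.081, and without mutant 4 it was 0.11. Smad7, an inhibitory Smad that TGF-beta induces, read 8.61, 8.63, 8.61 and 8.69 in mutants and 8.56, 8.54, 8.51 and 8.31 in controls. Those groups did not overlap, with mutants higher, but the log2 change of 0.15 did not pass (adjusted p = 0.176).

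Bhlhe40 had the largest change of the 9. It encodes a basic helix-loop-helix repressor that TGF-beta, hypoxia and the circadian clock induce. The log2 values were 6.98, 6.65, 6.38 and 6.64 in mutants and 7.06, 7.37, 7.14 and 7.24 in controls, with mutant 1 closest to the controls but still below all of them. The means were 6.66 ± 0.25 in mutants and 7.20 ± 0.13 in controls (SD, n = 4 each). This is −0.54 on the log2 scale (SE 0.119, adjusted p = 0.0206). The call over all genes was lost without mutant 2, mutant 4, control 2 or control 4 (−0.54 to −0.49, adjusted p up to 0.0615). Over all probe sets Bhlhe40 passed in 9 of 18 alternatives and was also lost without mutant 3 or control 3.

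Of 18 hypoxia and clock genes, 1 rose and 0 fell: Adm, the gene of the vessel-dilating peptide adrenomedullin, at 0.27. The list's median log2 change was −0.03, beside −0.01 over all genes, of which 4.2% rose and 5.52% fell. Bhlhe41, the paralog of Bhlhe40, lay below the array medians in both groups (log2 change −0.03, adjusted p = 0.867). On the same arrays 4 of the 12 macrophage and leukocyte markers fell and 0 rose, among them Csf1r, the receptor of the macrophage growth factor, at −0.60. The log2 of their summed signal was 10.95 to 11.54 in mutants and 11.58 to 11.69 in controls, and Ptprc, the pan-leukocyte marker CD45, lay below the array medians in both groups. The part of these cells in the Bhlhe40 result was not tested.

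The 3 matrix genes did not pass. Ccn2, the connective tissue growth factor, is a secreted adaptor protein that both Smads and the Yap and Tead factors induce. Its log2 values were 9.41, 9.29, 9.42 and 8.89 in mutants and 9.47, 9.52, 9.48 and 9.37 in controls, and the mutant spread came mainly from mutant 4. The log2 change was −0.21 (95% interval −0.46 to 0.04, adjusted p = 0.288), and without mutant 4 it was −0.09. Ccn1, the closest relative of Ccn2, read 8.77, 8.42, 8.65 and 8.27 in mutants and 8.97, 8.83, 8.85 and 9.17 in controls, with mutant 4 again the lowest. Ccn1 changed by −0.43 and passed at an adjusted p of 0.0484, but its call held only without mutant 1 among the 8 single-array omissions (−0.51 to −0.34). Its probe set name ends in _x_at, and with sets ending _s_at or _x_at left out the call was lost. Ccn1 is counted in the lists of paralogs, of Yap and Tead targets and of TGF-beta response genes alike. Of 13 Yap and Tead targets and factors 3 fell and 0 rose, namely Ccn1, the stretch-responsive muscle gene Ankrd1 at −1.68 and Wwtr1, which encodes the Yap relative Taz, at −0.29. The list's median log2 change was 0.00, and 2 of the 13 fell with the mean of each gene's probe sets. Over all genes 5.52% fell and 4.2% rose on the brightest set.

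Postn, encoding periostin, and Tgfbi belong to the fasciclin family of secreted adhesion proteins that bind collagen and integrins. Postn marks embryonic tendon, perichondrium and other fibrous tissue. Its log2 values of 12.83, 12.83, 12.59 and 12.40 in mutants all lay below the 12.86, 12.95, 13.01 and 12.93 of controls, with mutants 1 and 2 close to control 1. The log2 change of −0.27 (SE 0.095, 95% interval −0.49 to −0.06) did not pass over all genes (adjusted p = 0.109).

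Tgfbi gave the smallest change of the members on 4 probe sets that agreed closely. On its brightest set, 1448123_s_at, the log2 values were 12.29, 12.34, 11.92 and 12.09 in mutants and 12.19, 12.23, 12.22 and 12.38 in controls. Mutants 1 and 2 lay within the control range and mutants 3 and 4 below it. The log2 change was −0.10 (95% interval −0.31 to 0.11, adjusted p = 0.591), and the interval spans 0.809 to 1.08 of the control level. Leaving out single arrays gave −0.16 (without mutant 2) to −0.016 (without mutant 3), and no such fit passed. The other 3 sets changed by −0.15 to −0.10 with adjusted p-values of 0.488 to 0.582 over all probe sets. Of the 4 sets only 1415871_at, at −0.15, has a name without the ending _s_at or _x_at. The 4 sets need therefore not be separate measures of Tgfbi. The change of Tgfbi minus that of Postn was 0.18 on the log2 scale (exact two-sided permutation p = 0.0857, adjusted 0.171 over 2 pairs), so a difference between these 2 genes was not shown.

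Of the 14 tendon and connective tissue markers 5 fell and 2 rose, with a median log2 change of −0.30. The log2 of their summed signal was 13.91 to 13.93 in mutants and 13.96 to 14.29 in controls, and Tnmd, a marker of mature tendon, lay below the array medians in both groups. Smooth muscle and pericyte markers summed to 13.72 to 13.92 in mutants and 13.99 to 14.07 in controls. Acta2 alone averaged a log2 value of 13.17 in mutants and 13.43 in controls. Acta2 and Tagln, the 2 of these 10 markers that fell, are also in the list of TGF-beta response genes described next. Myh11 and Cnn1 lay below the array medians in both groups. The part of either population in the values of the matrix genes was not tested.

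Other known TGF-beta response genes changed in both directions. Of 24 measured, 8 fell and 8 rose, where 5.52% of all genes fell and 4.2% rose. The median log2 change was −0.07, beside −0.01 over all genes. With the mean of each gene's probe sets 6 fell and 7 rose, where 4.61% of all genes fell and 3.42% rose. Among those that fell, the proteoglycan gene Bgn changed by −0.82 (SE 0.114), the cell cycle inhibitor gene Cdkn1a by −0.50 and the collagen I genes Col1a1 and Col1a2 by −0.65 and −0.42. Among those that rose, Snai2, a transcription factor of neural crest and mesenchyme, changed by 0.60 (SE 0.052, adjusted p = 0.000245), Id2 by 0.54 and Id1 by 0.33. Also among the 8 that rose were Id3 at 0.39, Timp1 at 0.32, Snai1 at 0.28, Angptl4 at 0.25 and the collagen III gene Col3a1 at 0.24. Col3a1 thus moved opposite to Col1a1 and Col1a2. Id1 and Id2 are induced by BMP, and TGF-beta represses them in several cell types. The list thus holds genes known to be induced and genes known to be repressed, and why genes rose or fell was not tested. Cdkn1a did not pass with the mean of all its probe sets (adjusted p = 0.196). The 19 pathway components measured were ligands, receptors, Smads, latent binding proteins, the Smurf ubiquitin ligases and the Smad anchor Zfyve9. Of these 4 fell and 2 rose, beside 5.52% and 4.2% of all genes, with a median log2 change of 0.02. Tgfb3 changed by −0.67, Tgfbr2 by −0.47, Ltbp3 by −0.45 and Ltbp1 by −0.34. The 2 that rose were the targeted gene Tgfbr1 at 0.39 and Tgfbr3 at 0.36. With the mean of each gene's probe sets 2 fell and 1 rose.

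Of 18 measured paralogs of the members, 2 fell (Ldlrad4 and Ccn1) and 2 rose (Tgif2 and Dach2), where 5.52% of all genes fell and 4.2% rose. With the mean of each gene's probe sets 3 fell and 2 rose. Dach2, a relative of the Ski family, is a nuclear cofactor of muscle precursors and limb tissue. It was between 6.96 and 7.23 in mutants and between 6.40 and 6.83 in controls (log2 change 0.55, adjusted p = 0.00982), with the groups apart. Of the others, Ccn3, Ccn5, Ccn6, Stab2, Skor1 and Bhlhe41 lay below the array medians in both groups.

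**Figure D4:**
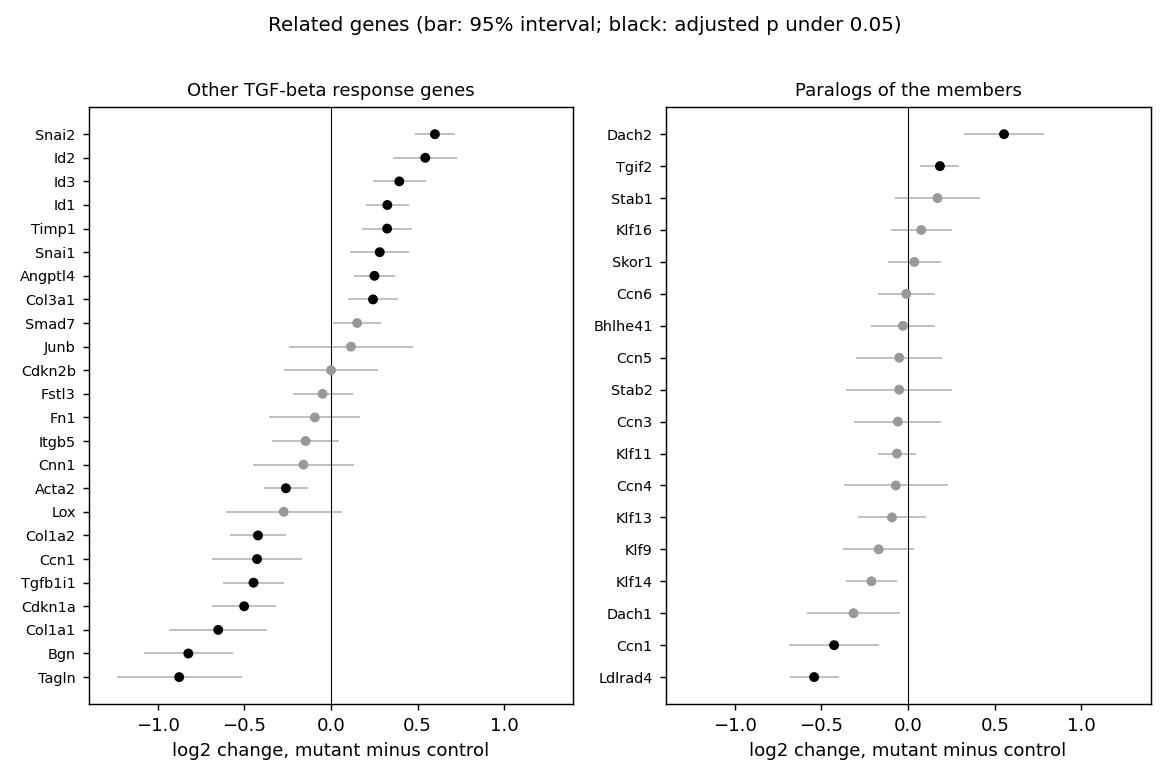
Log2 change, mutant minus control (horizontal axes), with 95% intervals for the 24 other TGF-beta response genes (left) and the 18 paralogs of the members (right), sorted by change; black marks an adjusted p under 0.05 over all genes. The response genes run from Tagln at −0.88 to Snai2 at 0.60, with 8 called on each side.

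The genes whose profiles over the 8 arrays lay nearest to each called member were found from the root-mean-square difference of log2 values after each gene's own mean was removed. Nearest to Pmepa1 were Me1, the cytosolic malic enzyme, at 0.061 and Enox1 at 0.075, with log2 changes of −0.50 and −0.48. Nearest to Ski were Rsad2 at 0.035 and Rassf3 at 0.038, with log2 changes of −0.20 and −0.20. Nearest to Tgif1 were Smpd4 at 0.031 and Ctbp2, a transcriptional co-repressor, at 0.038, with log2 changes of 0.20 and 0.29. Nearest to Bhlhe40 were Tyrobp, a signalling adaptor of macrophages and other myeloid cells, at 0.054 and Ddc, the aromatic amino acid decarboxylase, at 0.066. Their log2 changes were −0.51 and −0.59. The log2 value of Tyrobp was 8.29, 7.79, 7.61 and 7.88 in mutants and 8.23, 8.52, 8.42 and 8.43 in controls.

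Across the alternatives the members kept their directions while the calls of Ski, Tgif1 and Bhlhe40 came and went. Over all genes Pmepa1 passed in 19 of 19, although its brightest set passed in 12 of 18 over all probe sets. Over all genes Bhlhe40 passed in 13, Tgif1 in 10, Ski in 7 and Skil in 4. Over all probe sets their brightest sets passed in 9, 5, 2 and 1 of 18. Klf10, Ccn2, Tgfbi and Postn passed in 0 of 19.

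**Figure D5:**
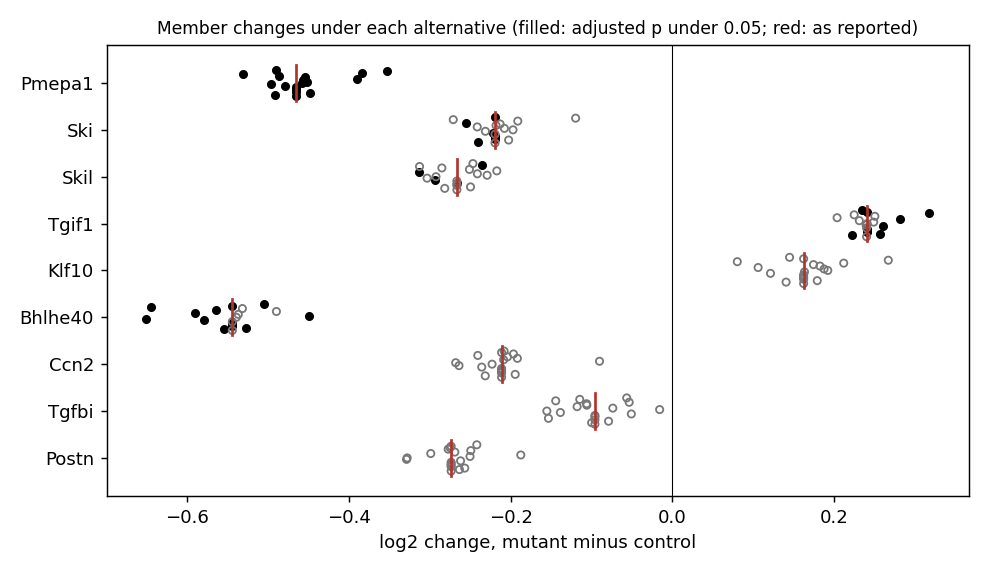
Log2 change, mutant minus control (horizontal axis), of each member gene under each of the 19 alternatives; filled points passed an adjusted p of 0.05, open points did not, and the red line is the value as reported. Pmepa1 lies between −0.53 and −0.35 with all points filled, and no member crosses 0.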

How the data were processed

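Total RNA of tongue buds was extracted with a column kit and labelled by the standard Affymetrix cRNA method, per the labels' protocols. The deposited table holds log2 values, 1 per probe set and array, made by the authors with RMA per the submitters' processing notes. The sources used here give no version or settings. RMA makes array distributions alike, so shifts shared by most genes can be removed. Names came from the platform annotation, in which 34945 of 45101 probe sets name 1 gene. The genotypes were compared two-sidedly by lmFit and eBayes of limma 3.58.1 (R 4.3.3), over all 34945 of these and over 18193 genes represented by their brightest probe set, with Benjamini-Hochberg adjustment at 0.05. SE is the moderated standard error. The procedure was tested on simulated data with independent errors and planted changes larger than those of most members. That test does not cover changes as small as theirs or spread shared between genes. Rose and fell refer to mutants relative to controls and are used of called genes. Differences between probe sets or genes were tested by exact permutation over arrays. Named genes were all members, Tgfbr1, Smad7 and Col1a1, called genes of the related lists (at most 6 a list by p), and the 2 nearest profiles of each called member. Malat1, genes named as lying below the array medians and other genes outside this rule were added after their values were seen. Members and lists were chosen with earlier results of these data known. The replicate numbers did not pair the arrays (correlations of deviations −0.58 to −0.13). No column of another sample was present. RefSeq promoters (GRCm38.p6) matched 4 of the 9 members. Protein sequences were not analysed here. The number of arrays limits the precision.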

Additional observations from a re-analysis of the deposited data

Results flagged for a closer look

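Each group of 4 arrays was searched for an array far from the other 3, in 32 groups over the 16 probe sets, where chance marks about 1 group in 20. In mutants, array 1 stood above the others on Pmepa1 set 1422706_at, at a log2 value of 8.81 where the other mutants read 8.68 to 8.70 (gap over range 0.861). It still lay below every control. In controls, array 4 stood above the others on Tgfbi set 1415871_at, at 10.94 where the other controls read 10.76 to 10.78 (gap over range 0.902). Without control 4 the change of that set did not pass, as it did not with all arrays.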

How the results depend on the processing

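The 19 alternatives were the replicate block, repeated quantile normalization, median centring, leaving out dim or cross-matching probe sets, other variance models, array weights, the mean of all probe sets, leaving out each array or controls 1 and 3 together, and the Malat1 covariate, which was added after seeing the data. At gene level 3 members fell and 1 rose as reported. With 1 array left out 1 to 3 fell and 0 to 1 rose. With the replicate number as a block 1 fell and 0 rose, and the same counts came without variance moderation. Over all genes the block gave 966 calls against 1768 as reported, and with 1 array left out there were 1143 (mutant 2), 1155 (control 2), 1172 (mutant 3 or mutant 4) and up to 1583. At probe set level 2 fell and 1 rose as reported. With 1 array left out 0 to 2 fell and 0 to 1 rose. With the replicate block 1 fell and 0 rose, and without variance moderation in limma 0 fell and 0 rose (9 of the 16 at an unadjusted p under 0.05, lowest adjusted p 0.0562). With trend and robust options 4 fell. The number rising was 0 with repeated quantile normalization, with median centring, with sets ending _s_at or _x_at left out and with the Malat1 covariate. Without controls 1 and 3, 0 fell and 1 rose. Fewer arrays also leave fewer degrees of freedom, and other causes were not tested. The second Ski set, 1429192_at, reversed sign with 1 array left out (−0.19 to 0.20) and without controls 1 and 3 (0.0885). The change of Tgfbi minus Postn stayed positive with 1 array left out (0.11 to 0.23), and that of Ski minus Skil ran from −0.0041 to 0.10. With 1 array left out, 3 differences between the changes of probe sets of 1 gene crossed 0: the brightest Tgfbi set minus set 1456250_x_at (−0.0023 to 0.041) and minus set 1437463_x_at (−0.016 to 0.029), and one Skil set minus the other (−0.11 to 0.0083).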
